A study of Mus musculus with 4 samples.

Results

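Pericytes are the contractile support cells wrapped around capillaries, and with the smooth muscle cells of larger vessels they make up the mural cells. The 7 genes described here are widely used to mark pericytes: Rgs5, Cspg4, Notch3, Kcnj8, Abcc9, Higd1b and Mcam. They were taken as a fixed list by gene symbol, 7 of the 32285 genes in the deposited matrices, and all 7 were found in each library. In fibrotic pancreas and in pancreatic tumours, fibroblasts can take on contractile genes such as Acta2 and are then called myofibroblasts, and pericytes have Acta2 too, so that Acta2 alone does not separate the 2 kinds of cell. The question put to the data was whether the cells that look like myofibroblasts hold the pericyte genes together, as a mural cell would.

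The study sequenced single cells from mouse pancreas, with 1 library per group. The groups are a KPC tumour treated with AF12198, a control KPC tumour given saline, a pancreas ligated by suture without a tumour, and a normal pancreas. KPC cells, a mouse pancreatic cancer line, were injected into ligated pancreas, and both tumours therefore share the ligation with the tumour-free ligated pancreas. AF12198, a peptide that blocks the interleukin-1 receptor IL1R1, and saline were injected weekly into the peritoneum, and tissue was taken at 4 weeks. The labels do not state strain, sex, age or how many animals a library holds. Because each group is 1 library and cells of a library are not replicates, no test was made. All intervals are exact, at 95%, and cover counting error only.

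The libraries held 21840 barcodes in the AF12198-treated tumour, 23189 in the control tumour, 1165 in the ligated pancreas and 1844 in the normal pancreas, with 96886820, 95779324, 5360054 and 11350597 unique molecular identifiers (UMIs, counts of captured RNA molecules) in that order. All barcodes had 500 or more UMIs. The 2 tumour libraries shared 129 barcode sequences, and other pairs of libraries shared 1 to 18, while no barcode with 2 or more of the 7 genes had a sequence shared between libraries. Immune-like cells made up most of both tumour libraries, which lowers every share of all barcodes there. Fewer cells of a type and less RNA per cell cannot be told apart in values summed over a whole library.

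The 7 genes code for 3 kinds of product. Signalling proteins are Rgs5, a regulator that shortens signals from G protein-coupled receptors, and Notch3, the Notch receptor of mural cells. Surface molecules are Cspg4, the proteoglycan also known as NG2, and Mcam, the adhesion molecule CD146, which endothelial cells have as well. Channel parts are Kcnj8, the pore (Kir6.1), and Abcc9, the sulfonylurea receptor (SUR2), which together form the ATP-sensitive potassium channel of vascular muscle. Higd1b is a small protein of the hypoxia-inducible domain family.

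On build GRCm38, Rgs5 (ENSMUSG00000026678) lies at chr1:169655501-169695813 on the plus strand and Cspg4 (ENSMUSG00000032911) at chr9:56865033-56899870 on the plus strand. Notch3 (ENSMUSG00000038146) lies at chr17:32120820-32166852 on the minus strand, Higd1b (ENSMUSG00000020928) at chr11:102835849-102838040 on the plus strand and Mcam (ENSMUSG00000032135) at chr9:44134469-44142727 on the plus strand. Kcnj8 (ENSMUSG00000030247) at chr6:142564837-142571614 and Abcc9 (ENSMUSG00000030249) at chr6:142587862-142702315 are neighbours on the minus strand, 16247 bases apart with 0 protein-coding genes between them. Notch3, Abcc9 and Mcam each overlap 1 annotated gene of the other strand (Gm17276, 5330439B14Rik and Gm10687), and no member overlaps a gene of its own strand.

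The promoters of the 2 channel genes, whose UMIs were found in the same barcodes outside mural cells as well, and of Rgs5, the most abundant of the 7, are given here from RefSeq on GRCm38.p6, 250 bases before to 50 bases after the annotated start. The stretches are chr6:142571565-142571864 (minus strand) for Kcnj8, chr6:142702225-142702524 (minus strand) for Abcc9 and chr1:169655251-169655550 (plus strand) for Rgs5. Capitals mark the motif TGGGAA, the core site of the Notch pathway factor RBPJ, searched on both strands.
Kcnj8: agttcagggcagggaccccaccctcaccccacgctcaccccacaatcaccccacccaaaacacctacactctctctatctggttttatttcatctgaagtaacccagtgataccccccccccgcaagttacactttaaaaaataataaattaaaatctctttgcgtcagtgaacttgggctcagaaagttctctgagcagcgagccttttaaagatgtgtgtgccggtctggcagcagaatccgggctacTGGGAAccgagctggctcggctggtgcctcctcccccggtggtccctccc
Abcc9: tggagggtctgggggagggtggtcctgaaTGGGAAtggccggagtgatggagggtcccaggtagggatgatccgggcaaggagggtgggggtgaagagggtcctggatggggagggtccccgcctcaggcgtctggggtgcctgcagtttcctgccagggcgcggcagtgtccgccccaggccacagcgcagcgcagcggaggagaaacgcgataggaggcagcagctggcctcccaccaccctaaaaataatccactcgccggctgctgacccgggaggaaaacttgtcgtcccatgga
Rgs5: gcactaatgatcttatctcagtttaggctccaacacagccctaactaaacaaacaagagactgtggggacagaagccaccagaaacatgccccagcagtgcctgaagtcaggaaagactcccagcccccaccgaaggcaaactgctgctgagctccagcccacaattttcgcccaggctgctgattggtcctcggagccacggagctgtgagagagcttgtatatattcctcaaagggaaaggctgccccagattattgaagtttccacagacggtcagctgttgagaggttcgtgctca
The motif occurred in the windows of Kcnj8 and Abcc9, 1 match each, and in none of the other 4 windows that could be read (Rgs5, Cspg4, Notch3 and Mcam). It is held by 25.6% of all 32851 promoter windows of the same length. The CArG box, the site of serum response factor in smooth muscle genes, occurred in 0 of the 6 windows, and 1.63% of all windows hold it. These are matches of letters and not shown sites.

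Barcodes that held 2 or more of the 7 genes were uncommon in every library. They numbered 164 in the AF12198-treated tumour (0.751%, interval 0.641 to 0.875), 374 in the control tumour (1.61%, 1.46 to 1.78), 52 in the ligated pancreas (4.46%, 3.35 to 5.81) and 49 in the normal pancreas (2.66%, 1.97 to 3.50). Most of these barcodes held only 2 or 3 of the genes: 123, 293, 35 and 43 in the same order of libraries. Barcodes with 4 or more numbered 41, 81, 17 and 6, and those with all 7 numbered 7, 11, 1 and 1. The limit of 4 was chosen after the data had been seen. Barcodes with 2 or more of the genes were deeper than the rest. Their median was 10199 UMIs in the AF12198-treated tumour, 8146 in the control tumour, 5078 in the ligated pancreas and 13991 in the normal pancreas, against medians of 2214, 1974, 1744 and 1247 UMIs for barcodes with none of the 7. At an equal depth of 1000 UMIs per barcode the shares with 2 or more were 0.212%, 0.570%, 2.29% and 0.787%.

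The collagen UMIs of these barcodes did not form 1 population. The measure is the sum of Col1a1, Col1a2 and Col3a1, the main fibrillar collagens of fibroblasts, given as CPM, the UMIs of a gene per 1000000 UMIs of the barcodes pooled. Barcodes with 2 or 3 of the genes held 15998 collagen CPM in the AF12198-treated tumour, 24906 in the control tumour, 16008 in the ligated pancreas and 89.7 in the normal pancreas. Barcodes with 4 or more held 4846, 7992, 4452 and 659 CPM in the same order. Pooled in this way, collagen was lower with 4 or more than with 2 or 3 of the genes in 3 libraries and higher in the normal pancreas. The level did not fall step by step with the number of genes: barcodes with exactly 3 held 26059 CPM in the control tumour and 39813 in the ligated pancreas (4 barcodes), against 24576 and 10470 CPM with exactly 2.

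Within the barcodes of 2 or 3 genes, collagen ran between extremes. Per 10000 UMIs of a barcode, their collagen ranged over 0 to 793 with a median of 1.77 in the AF12198-treated tumour, 0 to 1139 with a median of 80.1 in the control tumour, 0 to 1016 with a median of 2.12 in the ligated pancreas, and 0 to 70.8 with a median of 0 in the normal pancreas. More than 100 collagen UMIs per 10000 were found in 44 of 123, 144 of 293, 8 of 35 and 0 of 43 of them. Among barcodes with 4 or more of the genes the medians were 11.2, 15.8, 27.4 and 5.54, and 4 of 41, 5 of 81, 2 of 17 and 0 of 6 passed 100. The medians of single barcodes thus ran against the pooled values in the AF12198-treated tumour and the ligated pancreas. The group of 4 or more mostly had some collagen at a low level. Outside the normal pancreas, the group of 2 or 3 held both barcodes with almost none and barcodes at a fibroblast level. In the ligated pancreas the latter were few, and in the normal pancreas 0 of 43 passed 100.

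**Figure D1:**
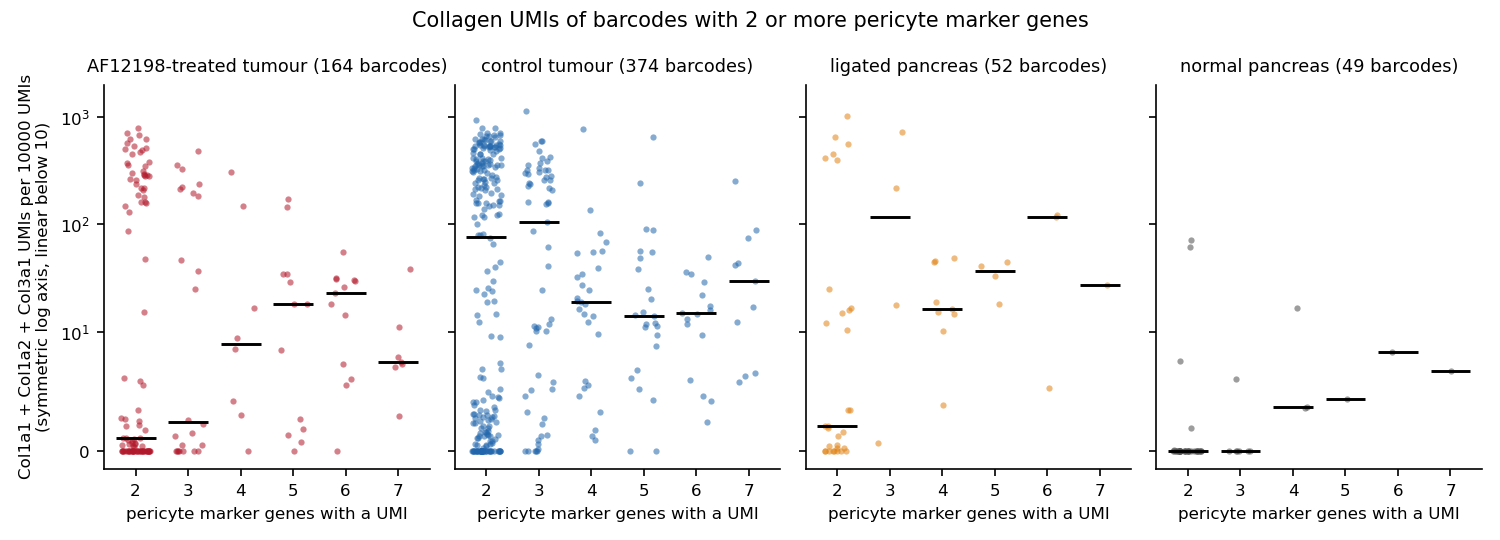
Collagen UMIs (Col1a1, Col1a2 and Col3a1 summed) per 10000 UMIs of a barcode, on a symmetric log axis, against the number of the 7 pericyte genes with a UMI, for every barcode with 2 or more of them in each library; each point is a barcode, spread sideways at random, and black bars are medians. With 2 or 3 genes the tumour barcodes run between 0 and 1139, and with 4 or more most stand under 100.

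Some lists of genes outside the 7 separated the same barcodes, and the myofibroblast list did not do so in a single direction. The list of other mural genes, such as the receptor Pdgfrb and the muscle filament Des, summed to 2668 CPM in barcodes with 4 or more of the 7 in the AF12198-treated tumour, 2950 in the control tumour, 7765 in the ligated pancreas and 5237 in the normal pancreas, against 529, 781, 444 and 164 CPM in barcodes with 2 or 3. Basement membrane collagens, such as Col4a1 and Col18a1, summed to 4944, 5101, 7510 and 2966 CPM with 4 or more and to 2757, 3163, 1274 and 401 CPM with 2 or 3. Fibroblast genes other than collagens, Dcn and Lum among them, went the other way: 391, 1381, 221 and 293 CPM with 4 or more against 3142, 6100, 5026 and 492 CPM with 2 or 3. Myofibroblast genes, such as Tnc and Postn, summed to 2335, 2291, 1920 and 915 CPM with 4 or more against 2103, 3675, 1246 and 35.5 CPM with 2 or 3. They were thus lower with 4 or more in the control tumour and higher in every other library. Endothelial markers were in the barcodes with 4 or more as well: 31 of 41, 50 of 81, 8 of 17 and 6 of 6 held at least 2 of the 12 markers. Whether these are vessel cells caught together or RNA carried over was not tested.

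Genes other than the 7, listed or not, were named by a fixed rule, the highest ratio of CPM in barcodes with 3 or more of the 7 over all other barcodes, with libraries weighted equally and at least 50 UMIs in those barcodes. The first was the olfactory receptor gene Olfr558 at a ratio of 1209, with 37.0, 60.8, 65.5 and 10.6 CPM in barcodes with 3 or more in the AF12198-treated tumour, control tumour, ligated and normal pancreas. Next came the cation channel Trpc6 (369), Trarg1 (182), the smooth muscle myosin Myh11 (64.4) and the Notch target Hey2 (57.8). A further 9 were Cox4i2, Gm13889, Carmn, Rasl12, Synpo2, Lmod1, Nrip2, Myl9 and Gucy1b1, with ratios between 25.4 and 55.9. Those named were higher in 4 of 4 libraries except Hey2, which had 0 CPM in these barcodes of the normal pancreas.

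To ask which cells hold the genes, the cells were clustered on variable genes from which the 7 had been left out, and clusters were named from markers of each cell type. At this level most UMIs of the 7 lay in the endothelial-like class, 68.6%, 67.8%, 77.3% and 59.4% of those in kept cells. A second clustering of the endothelial-like and fibroblast-like cells, again without the 7 and added after the data had been seen, set apart a cluster of 137 cells in which 14 of 16 other mural markers were raised and 2 of 12 endothelial ones. It is called mural-like here. It held 31 cells in the AF12198-treated tumour, 80 in the control tumour, 19 in the ligated pancreas and 7 in the normal pancreas. Of the 137 cells, 135 came from the endothelial-like class and 2 from the fibroblast-like class. Since the other mural genes also drew the cluster, only the levels of the 7 are independent of how it was made and named, and they are levels in the same cells.

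For each 100 blood vessel endothelial-like cells there were 9.87 mural-like cells in the AF12198-treated tumour (6.59 to 14.3), 20.1 in the control tumour (15.6 to 25.6), 21.3 in the ligated pancreas (12.3 to 35.3) and 2.75 in the normal pancreas (1.09 to 5.74). The normal pancreas was the lowest of the 4. These are cells that came through digestion and filtering, 1 library each.

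Rgs5 was the most abundant of the 7 in mural-like cells. It stood at 5580 CPM in the AF12198-treated tumour (5291 to 5880), 8730 in the control tumour (8433 to 9036), 11577 in the ligated pancreas (10749 to 12453) and 12468 in the normal pancreas (10973 to 14109). Its median in a mural-like cell was 29, 20.5, 26 and 27 UMIs in that order. The mural-like cells held 52.5%, 69.5%, 81.4% and 47.8% of all Rgs5 UMIs of kept cells. The intervals of the ligated and normal pancreas overlap, and those of the 2 tumours lie below them and apart from each other. Rgs5 was also found elsewhere: in blood vessel endothelial-like cells it had 211, 103, 37.2 and 184 CPM, carried by 18, 22, 3 and 18 cells, of which 4, 3, 0 and 3 held 10 or more UMIs.

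Epithelial-like cells held Rgs5 at 52.6 CPM in the AF12198-treated tumour, 49.5 in the control tumour, 63.3 in the ligated pancreas and 14.4 in the normal pancreas. The class pools several clusters. A cluster led by Dcdc2a and Ces1d held 332 of 334 ligated and 599 of 600 normal cells. It held only 81 of 1150 and 85 of 1262 cells of the AF12198-treated and control tumours. The tumour values are therefore mostly of other epithelial-like cells than the ligated and normal ones. The share of epithelial-like cells with an Rgs5 UMI was 5.65%, 6.26%, 19.2% and 10%, against 0.324%, 1.09%, 2.30% and 0% of immune-like cells, at epithelial medians of 4954, 5607, 3992 and 10872 UMIs and immune medians of 2084, 1804, 1123 and 1861. In the AF12198-treated tumour 27 epithelial-like cells with 10 or more UMIs held 572 of the 684 Rgs5 UMIs, and in the control tumour 27 cells held 592 of 811. Higd1b had 0 UMIs in epithelial-like cells of every library. Most epithelial Rgs5 of the tumours was thus in few cells, without Higd1b at this depth.

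Notch3 stood at 412, 817, 1793 and 1192 CPM in mural-like cells of the AF12198-treated tumour, control tumour, ligated and normal pancreas. The next highest class stood at 9.86 CPM in the AF12198-treated tumour (blood vessel endothelial-like), 23.7 in the control tumour (myofibroblast-type), 21.2 in the ligated pancreas (blood vessel endothelial-like) and 18.9 in the normal pancreas (Dpt-type fibroblast-like, a class named from Dpt and markers listed with it). Mural-like cells held 53.6%, 59.1%, 76.2% and 30.8% of its UMIs. Epithelial-like cells had 1.77, 1.95, 9.5 and 4.24 CPM.

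Cspg4 was shared between mural-like and fibroblast-like cells. Its level in mural-like cells was 292, 304, 368 and 745 CPM, with intervals that overlap in the first 3 libraries (229 to 367, 250 to 365, 233 to 553) and in the normal pancreas run over 417 to 1229. Yet mural-like cells, which are few, held only 34.9%, 21.4%, 36.5% and 29.4% of its UMIs, and in the control tumour myofibroblast-type cells held 49.3%. Dpt-type fibroblast-like cells of the normal pancreas had 22.7 CPM of Cspg4, 12 UMIs in all.

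Mcam was as much an endothelial as a mural gene in the tumours. Blood vessel endothelial-like cells had 452 CPM in the AF12198-treated tumour, 856 in the control tumour, 404 in the ligated pancreas and 130 in the normal pancreas, and mural-like cells had 464, 790, 801 and 397 CPM. In the 2 tumours the levels of both classes lay close together, and in the ligated and normal pancreas mural-like cells stood higher. Mural-like cells held 10.6%, 14%, 30.7% and 3.59% of the Mcam UMIs. Leaving Mcam out of the list brings the share of barcodes with 2 or more to 0.476%, 1.13%, 3.18% and 1.57%.

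The channel genes Kcnj8 and Abcc9 were found in mural-like and in fibroblast-like cells. In mural-like cells Kcnj8 had 228, 188, 64.1 and 646 CPM and Abcc9 had 588, 720, 897 and 1391 CPM. In fibroblast-like cells that are neither myofibroblast-type nor Dpt-type, Kcnj8 had 20.7 CPM in the AF12198-treated tumour, 21.0 in the control tumour and 5.46 in the ligated pancreas, and Abcc9 had 26.1, 52.4 and 11.8 CPM. Fibroblast-like cells as a whole held 35.0%, 62.2%, 78.3% and 6.67% of the Kcnj8 UMIs. In the normal pancreas 86.7% of Kcnj8 UMIs were in 4 mural-like cells. All barcodes of that library held only 15 Kcnj8 UMIs, and those of the ligated pancreas 23, so that their shares rest on few counts. Among barcodes with fewer than 4 of the 7, Kcnj8 and Abcc9 were found together in 27 barcodes of the AF12198-treated tumour, 64 of the control tumour, 3 of the ligated and 1 of the normal pancreas. In that fibroblast-like group 11 cells of the AF12198-treated tumour and 36 of the control tumour held the pair, 11 and 34 of them with under 4 of the 7. The genes of the pancreatic beta-cell channel, Kcnj11 and Abcc8, had 0 UMIs in barcodes with 4 or more of the 7 in 3 libraries and 2 UMIs in the normal pancreas.

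Higd1b was the most restricted of the 7. Mural-like cells held 85.1%, 93.8%, 100% and 87.5% of its UMIs in kept cells, at 344, 202, 96.1 and 348 CPM, although the ligated and normal values rest on 6 and 7 UMIs. In the normal pancreas all 7 UMIs came from 1 cell. Barcodes with a Higd1b UMI numbered 33, 47, 6 and 2 and held a median of 6, 6, 6 and 5 of the 7 genes. An Rgs5 UMI was present in 93.9%, 91.5%, 100% and 100% of them.

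**Figure D2:**
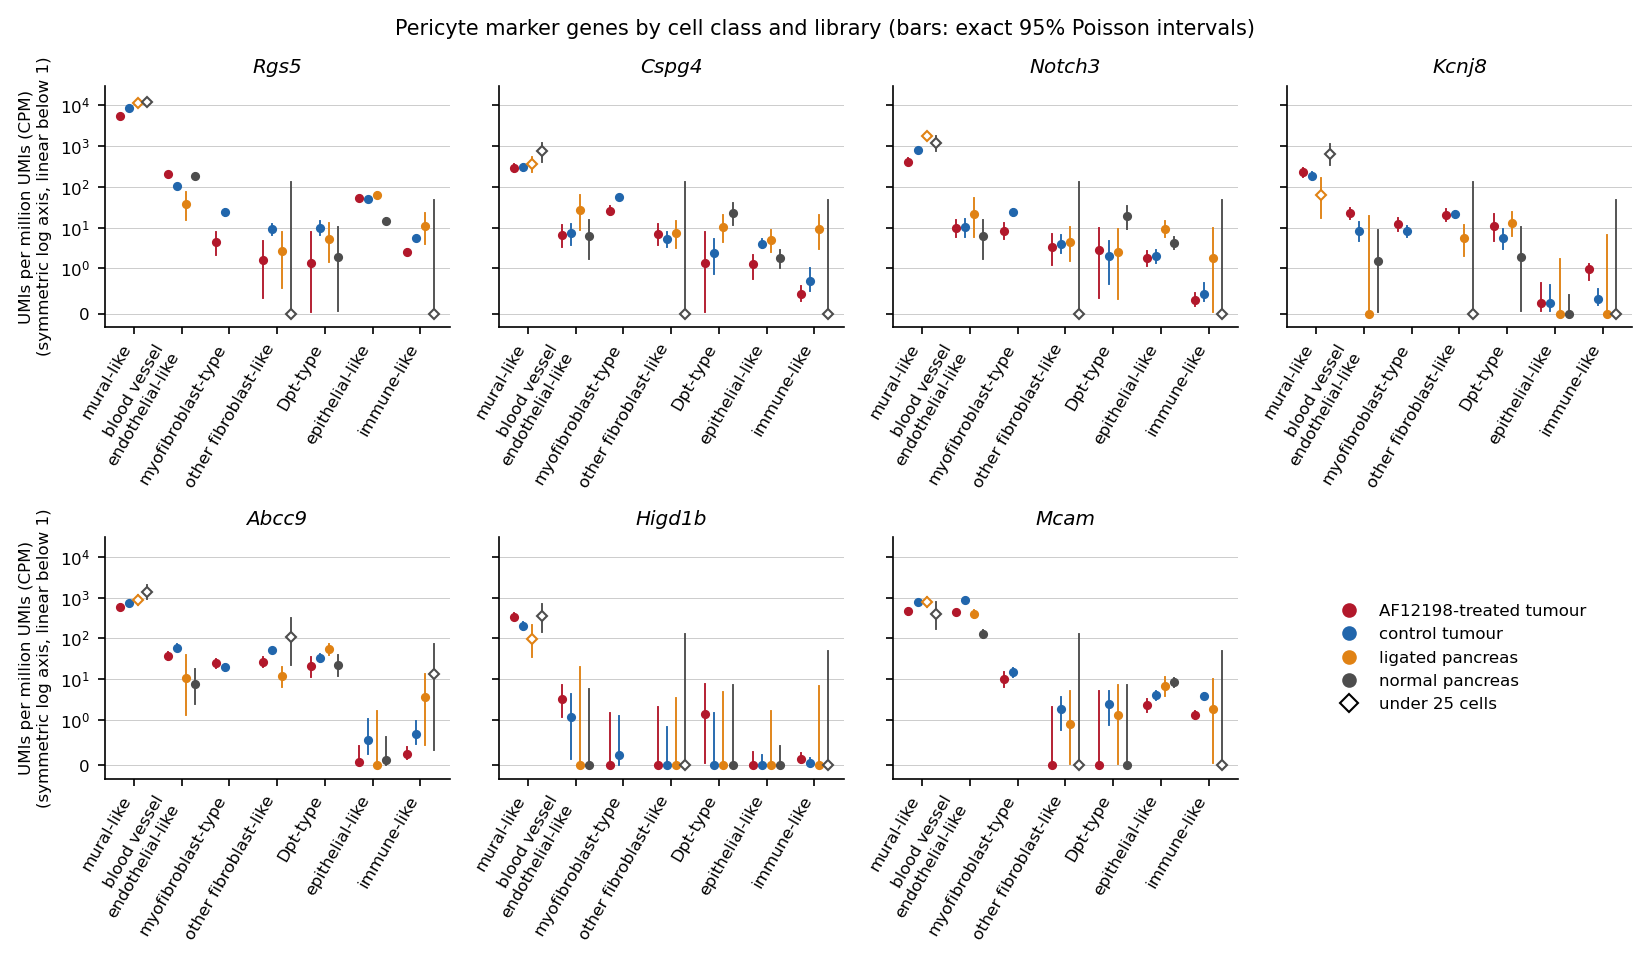
CPM of each of the 7 genes (symmetric log axis, linear below 1) in 7 cell classes, coloured by library, with exact 95% Poisson intervals; open diamonds are classes with under 25 cells. All 7 stand highest in mural-like cells in the control tumour except Mcam, at 790 CPM there against 856 in blood vessel endothelial-like cells, and Higd1b is near 0 outside mural-like cells.

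The barcodes with 2 or more of the genes were spread over several classes, and mural-like cells were 30 of 164 in the AF12198-treated tumour (18.3%), 79 of 374 in the control tumour (21.1%), 19 of 52 in the ligated pancreas (36.5%) and 6 of 49 in the normal pancreas (12.2%). Blood vessel endothelial-like cells were 44, 58, 9 and 8 of them, myofibroblast-type cells 27 and 74 in the 2 tumours, and epithelial-like cells 20, 30, 13 and 30, the last being 61.2% of those in the normal pancreas. Of the barcodes with 4 or more of the genes, 26 of 41, 61 of 81, 17 of 17 and 4 of 6 were mural-like.

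Within the mural-like class nearly every cell held several of the genes. At least 2 of the 7 genes were found in 30 of 31 mural-like cells of the AF12198-treated tumour (96.8%, 83.3 to 99.9), 79 of 80 of the control tumour (98.8%, 93.2 to 100.0), 19 of 19 of the ligated pancreas and 6 of 7 of the normal pancreas, at median depths of 5090, 3775, 2472 and 2284 UMIs. Immune-like cells, a class that should lack these genes, had 2 or more in 8 of 16355, 11 of 15364, 0 of 217 and 0 of 22 cells, at medians of 2084, 1804, 1123 and 1861 UMIs. A count of 0 allows up to 1.38% and 13.6% in the ligated and normal pancreas. The median number of the 7 genes in a mural-like cell was 6, 5, 4 and 4.

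The fibrillar collagen of mural-like cells lay below that of fibroblast-like cells and above that of blood vessel endothelial-like cells. In the AF12198-treated tumour, control tumour, ligated and normal pancreas, mural-like cells held 2514, 2403, 4291 and 844 collagen CPM. All fibroblast-like cells held 37823, 40050, 42075 and 11975 CPM, and blood vessel endothelial-like cells 69.5, 278, 372 and 42.9 CPM. These collagens were among the markers that named fibroblast-like cells. Immune-like cells held 68.9, 268, 356 and 13.2 CPM. Outside the normal pancreas the endothelial values thus stood near the immune-like level, and the part of free RNA in them was not tested. Endothelial markers were found in the mural-like cells as well: 21, 41, 8 and 4 of them held at least 2 of the 12 markers. Ptprc, the leukocyte gene CD45, was in 5, 21, 0 and 0. Without the cells with 2 or more endothelial markers (10, 39, 11 and 3 cells left), collagen stood at 1987, 2044, 3732 and 791 CPM and Rgs5 at 9262, 6971, 10641 and 10282 CPM. The order of Rgs5 in the 2 tumours is thus turned round among those cells.

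By clusters, myofibroblast-type cells were found in the 2 tumour libraries, 162 in the AF12198-treated tumour and 348 in the control tumour. They are 2 sub-clusters of fibroblast-like cells, without 2 of their cells that were set apart as mural-like. The sub-clusters were named from matrix markers such as Tnc and Postn and from the contractile genes Tagln and Acta2, which are mural markers too. One was led by genes such as Asgr2, Grem1 and Moxd1, with 8 of 12 myofibroblast and 5 of 16 mural markers raised. The other was led by the contractile genes Actg2, Acta2, Cnn1 and Tagln and by the cell cycle genes Pimreg, Top2a, Plk1, Pclaf and Ccna2, with 4 of 12 myofibroblast and 4 of 16 mural markers raised. Few of these cells held the pericyte genes together. At least 2 of the 7 were found in 27 of 162 (16.7%, 11.3 to 23.3) and in 74 of 348 (21.3%, 17.1 to 25.9), at medians of 16544 and 10868 UMIs, a depth well above that of the mural-like cells. Thinned to 1000 UMIs per cell, 1 of 157 (0.637%) and 4 of 347 (1.15%) myofibroblast-type cells still held 2 or more, against 24 of 30 (80%) and 69 of 80 (86.3%) mural-like cells. At that depth the myofibroblast-type share was under the 2.74% and 4.77% of blood vessel endothelial-like cells, with intervals that overlap in both tumours.

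**Figure D3:**
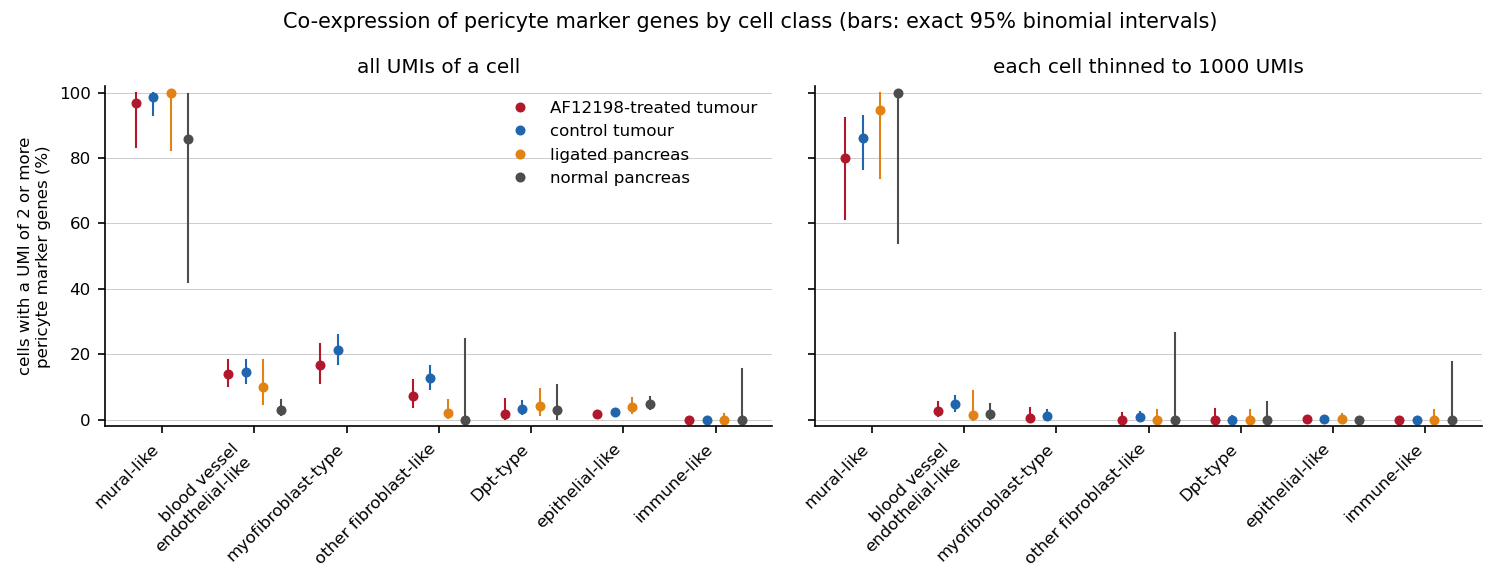
Percentage of cells with a UMI of 2 or more of the 7 pericyte genes by cell class and library, with exact 95% binomial intervals, from all UMIs of a cell (left) and after thinning each cell to 1000 UMIs (right). Mural-like cells stay at 80% or above when thinned, and myofibroblast-type cells go to 0.637% and 1.15%.

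The myofibroblast-type cells with 2 or more of the genes had collagen at a fibroblast level. Col1a1, Col1a2 and Col3a1 are among the markers that named fibroblast-like cells. Neither this level nor its distance from mural-like cells is therefore independent of the naming. Their collagen was 31845 CPM in the AF12198-treated tumour and 36511 CPM in the control tumour, against 41315 and 40619 CPM in myofibroblast-type cells with fewer than 2. The lowest of them had 131 and 100 collagen UMIs per 10000, while the highest mural-like cells with 2 or more had 148 and 90.7. In the control tumour the 2 sets of cells did not overlap, and in the AF12198-treated tumour the ranges crossed. In the AF12198-treated tumour the most frequent pairs in myofibroblast-type cells were Cspg4 with Mcam and Kcnj8 with Abcc9, 8 cells each, and in the control tumour Cspg4 with Notch3, 34 cells.

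Gene by gene, all 7 stood higher in mural-like than in myofibroblast-type cells in both tumours, 7 of 7 at 1.5-fold or more, beside 35.2% of all genes counted in the AF12198-treated tumour and 35.1% in the control tumour. None was lower, beside 23.2% and 22.6% of genes. Rgs5 was 1278 times higher in the AF12198-treated tumour (712 to 2567; 5580 against 4.36 CPM) and 368 times higher in the control tumour (304 to 451; 8730 against 23.7 CPM). Of the 108 Rgs5 UMIs in control myofibroblast-type cells, 100 came from 2 cells, and without these 2 cells Rgs5 was 4948 times higher (2508 to 11470). That ratio rests on 8 Rgs5 UMIs (1.76 CPM) in the other 346 myofibroblast-type cells, and the AF12198-treated level on 11 UMIs. Such low levels leave the size of the Rgs5 ratios uncertain, and the part of free RNA in them was not tested. Higd1b had 344 CPM in mural-like and no UMI in myofibroblast-type cells of the AF12198-treated tumour, which makes it at least 289-fold higher when 3 counts are put in for the 0. In the control tumour it had 75 UMIs against 1, a ratio of 919 with an interval of 160 to 36768.

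The smallest gap was that of Cspg4, 11.1 times higher in mural-like cells of the AF12198-treated tumour (7.88 to 15.8; 292 against 26.2 CPM) and 5.30 times in the control tumour (4.22 to 6.64; 304 against 57.3 CPM). Notch3 was 49.4 and 34.5 times higher, Kcnj8 18.5 and 23.2, Abcc9 24.3 and 37.3, and Mcam 46.7 and 53.8. Cspg4 was found in 22.8% of myofibroblast-type cells of the AF12198-treated tumour and in 33.9% of those of the control tumour, more often than any other of the 7.

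**Figure D4:**
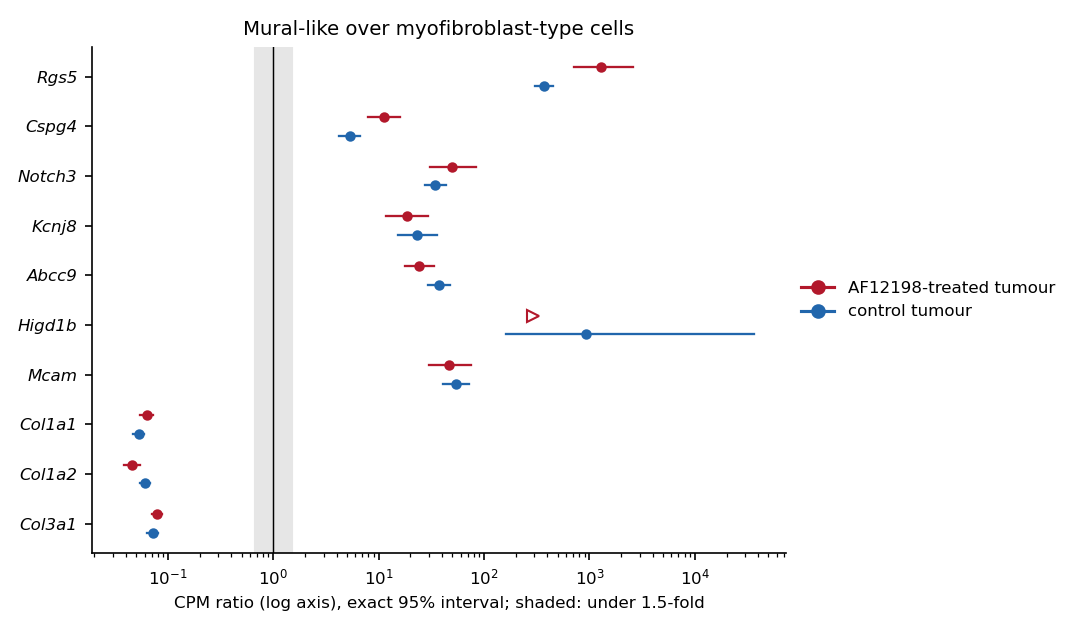
Ratio of CPM in mural-like over myofibroblast-type cells for the 7 pericyte genes and the 3 collagens, on a log axis, in each tumour, with exact 95% conditional intervals; the open triangle, a least value, puts 3 counts in for the 0 of Higd1b, and the shaded band is under 1.5-fold. The 7 genes lie between 5.30 (Cspg4, control tumour) and 1278 (Rgs5, AF12198-treated tumour) and the collagens between 0.0456 (Col1a2) and 0.0787 (Col3a1).

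The lists around the 7 showed the same division. As a limit, the other mural, contractile, fibroblast and myofibroblast lists share genes with the markers used for naming. Of 15 other mural genes 14 stood higher in mural-like than in myofibroblast-type cells in each tumour and 0 lower, led by the connexin Gja4 with 160 against 0.397 CPM in the AF12198-treated tumour and 153 against 1.54 CPM in the control tumour. Their median log2 ratio was 2.68 and 2.05, beside 0.21 for all genes in both. Of the fibroblast collagens 10 of 12 were lower, and of the fibroblast genes that are not collagens 10 of 10 and 9 of 9. Dcn, a proteoglycan of fibroblasts, had 0 UMIs in mural-like cells of the AF12198-treated tumour, at least 142-fold lower than the 1708 CPM of myofibroblast-type cells. In the control tumour Dcn stood at 10.8 against 2337 CPM. Basement membrane collagens had 3 of 5 higher and 1 lower in both tumours, with Col18a1 at 600 against 31.7 CPM and 712 against 27.2 CPM.

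Contractile genes divided the 2 kinds of cell less cleanly. Acta2 and Tagln were among the markers that named both classes, and Myh11 among those that named mural-like cells. Their levels are therefore not independent of the naming. In the AF12198-treated tumour 7 of 13 stood higher in mural-like cells and 1 lower, and in the control tumour 10 of 14 higher and 0 lower. Acta2, the smooth muscle actin, had 2206 against 1546 CPM in the AF12198-treated tumour, a ratio of 1.43, and 3220 against 954 CPM in the control tumour, a ratio of 3.37. Tagln had 1563 against 2046 CPM in the AF12198-treated tumour and 1874 against 1143 CPM in the control tumour. The direction of Tagln between mural-like and myofibroblast-type cells thus turned between the tumours, while no pericyte gene did so. Myh11, the late smooth muscle myosin, was higher in mural-like cells of both, 264 against 42.1 CPM and 898 against 16.9 CPM.

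Notch pathway genes were higher in mural-like than in myofibroblast-type cells in 8 of 12 counted in the AF12198-treated tumour and 12 of 13 in the control tumour. Hey2, a target that Notch3 signalling is known to raise in vascular muscle, had 105 against 0.658 CPM in the control tumour. Nrarp, a feedback inhibitor of Notch, had 148 against 2.63 CPM there. Of the vessel to mural cell signals, Pdgfrb, the receptor through which endothelium recruits pericytes, had 616 against 215 CPM in the AF12198-treated tumour and 992 against 335 CPM in the control tumour. All 12 endothelial markers were higher in mural-like cells in both tumours, and their part in the values of Notch and vessel genes was not tested.

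Only 5 myofibroblast-type cells held 4 or more of the 7, 3 in the AF12198-treated tumour and 2 in the control tumour. Their collagen was 174, 145 and 309 UMIs per 10000 in the AF12198-treated tumour and 242 and 252 in the control tumour, and 8 to 12 of the 14 fibroblast markers had a UMI in each. Rgs5 had 5, 3 and 0 UMIs in the AF12198-treated cells and 52 and 48 in the control cells, the same 2 cells that carry most of that class's Rgs5. Higd1b had 1 UMI in 1 of the 5. Endothelial markers with a UMI numbered 4, 3 and 0 in the AF12198-treated cells and 2 and 4 in the control cells. Whether these are 2 cells in 1 droplet was not tested.

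Among fibroblast-like cells of the same tumour, Cspg4 and Notch3 leaned to the myofibroblast-type and Kcnj8 to the rest. The other fibroblast-like cells here include 1 mural-like cell in each tumour. By the sub-clusters both of these cells were myofibroblast-type, and they left that class when mural-like cells were set apart. Against the other 359 fibroblast-like cells of the AF12198-treated tumour, 3 of 6 counted members were higher in myofibroblast-type cells, where 12.7% of genes were higher and 14.8% lower. They were Cspg4 at 4.47 times (2.65 to 7.88), Notch3 at 3.0 (1.32 to 7.44) and Mcam at 8.04 (2.77 to 31.8; 25 against 4 UMIs). Without the mural-like cell Mcam stood at 16.0 (4.0 to 140; 25 against 2 UMIs) and Cspg4 at 5.64. Rgs5 (0.615) and Kcnj8 (0.664) were past 1.5-fold lower with intervals that include 1. Against the other 989 of the control tumour, 4 of 6 were higher, where 11.9% of genes were higher and 12% lower: Cspg4 at 11.9 times (8.62 to 16.8), Notch3 at 6.99 (4.65 to 10.8), Mcam at 4.48 (2.87 to 7.14) and Rgs5 at 2.64 (1.96 to 3.56). Without the 2 cells that hold 100 Rgs5 UMIs, Rgs5 had 1.76 against 8.97 CPM, a ratio of 0.197 (0.0822 to 0.406), which turns its direction, and 3 of 6 were higher. Kcnj8 (0.546, 0.369 to 0.790) and Abcc9 (0.476, 0.373 to 0.602) were lower there. The 7 genes therefore did not move as 1 group within fibroblast-like cells.

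Of the 2 myofibroblast-type sub-clusters, the one with Grem1 held 41 cells of the AF12198-treated tumour and 237 of the control tumour. These are counts before the mural-like cells were set apart. In the Grem1 sub-cluster Cspg4 had 55 CPM in the AF12198-treated tumour and 72.2 in the control tumour, and Notch3 had 9.49 and 34.5. In the other sub-cluster Cspg4 had 20.5 and 39.6 CPM. At least 2 of the 7 were found in 22.0% and 23.6% of the Grem1 cells and in 15.6% and 17.0% of the other cells.

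AF12198 was set against saline within cell classes, with 1 library on each side. In mural-like cells, 1 of the 7 was higher and 3 were lower in the AF12198-treated tumour, where 19.7% of all counted genes were higher and 35.8% lower. Rgs5 had 5580 against 8730 CPM in the control tumour, a ratio of 0.639 (0.600 to 0.681). Notch3 had 412 against 817 CPM, 0.504 (0.399 to 0.632), and Mcam 464 against 790 CPM, 0.587 (0.469 to 0.730). Higd1b had 344 against 202 CPM, 1.71 (1.24 to 2.36). Cspg4 at 0.961, Kcnj8 at 1.21 and Abcc9 at 0.816 were within 1.5-fold. The 3 of 7 that were lower stand near the share of all genes, whose median log2 ratio was -0.22.

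Other genes of these mural-like cells stood beside that. Of the Notch pathway 7 of 13 were lower in the AF12198-treated tumour and 3 higher, with Hey2 at 24.0 against 105 CPM and Hes1 at 336 against 863 CPM. Endothelial markers were higher in 8 of 12 and lower in 0, with a median log2 ratio of 0.81, and their part in the differences of the 7 genes was not tested. Among mural-like cells with fewer than 2 endothelial markers, 10 in the AF12198-treated tumour and 39 in the control tumour, Rgs5 had 9262 against 6971 CPM, a ratio of 1.33 (1.16 to 1.51), which turns its direction. Notch3 had 1039 against 1022 CPM there, 1.02 (0.676 to 1.49), so that its call is lost. Mcam stood at 0.600 (0.331 to 1.02) and Higd1b at 2.89 (1.01 to 7.90), both on 16 UMIs or fewer in the AF12198-treated tumour. Cspg4 stood at 1.70 (0.924 to 3.03), Abcc9 at 0.519 (0.181 to 1.22), and Kcnj8 had 0 UMIs against 11.

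In blood vessel endothelial-like cells 2 members were higher in the AF12198-treated tumour and 2 lower. Rgs5 had 211 CPM in the AF12198-treated tumour against 103 in the control tumour, a ratio of 2.05 (1.71 to 2.47), and Kcnj8 23.0 against 8.38 CPM, 2.75 (1.47 to 5.44). Abcc9 had 37.2 against 59.2 CPM, 0.629 (0.455 to 0.865), and Mcam 452 against 856 CPM, 0.528 (0.484 to 0.576). All counted genes were higher in 12.3% and lower in 27.8%. In the AF12198-treated tumour 4 cells held 348 of the 385 Rgs5 UMIs, and in the control tumour 3 cells held 124 of 172. Without these cells Rgs5 had 21.0 against 29.2 CPM, a ratio of 0.720 (0.456 to 1.13), which turns the direction.

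In myofibroblast-type cells 3 members were lower in the AF12198-treated tumour and 1 higher, beside 29.4% and 10.2% of genes. Cspg4 had 26.2 against 57.3 CPM, a ratio of 0.457 (0.344 to 0.601), Notch3 8.33 against 23.7 CPM, 0.352 (0.209 to 0.565), and Rgs5 4.36 against 23.7 CPM, 0.184 (0.0893 to 0.343). Without the 2 control cells that hold 100 Rgs5 UMIs, Rgs5 had 11 UMIs against 8, a ratio of 2.47 (0.906 to 7.08), too low to count. Kcnj8 at 1.51 has an interval that includes 1 (0.909 to 2.51). The Grem1 sub-cluster, where Cspg4 is higher, makes up most of this class in the control tumour and a minority of it in the AF12198-treated tumour. Within each sub-cluster Cspg4 was also lower in the AF12198-treated tumour. The part of this make-up in the ratios was not tested. In all fibroblast-like cells together Rgs5 (0.426), Cspg4 (0.663) and Notch3 (0.513) were lower, 3 members, beside 24.8% of genes, and none was higher, beside 8.11%. Without those 2 control cells Rgs5 stood at 0.897 (0.586 to 1.34), Cspg4 at 0.677 and Notch3 at 0.544, and only Notch3 was past 1.5-fold. In the whole endothelial-like class, which includes mural-like cells, 5 of the 7 were lower, beside 28.5% of genes, and none higher, beside 11.5%. Those 5 were Rgs5 (0.520), Cspg4 (0.656), Notch3 (0.376), Abcc9 (0.598) and Mcam (0.541).

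**Figure D5:**
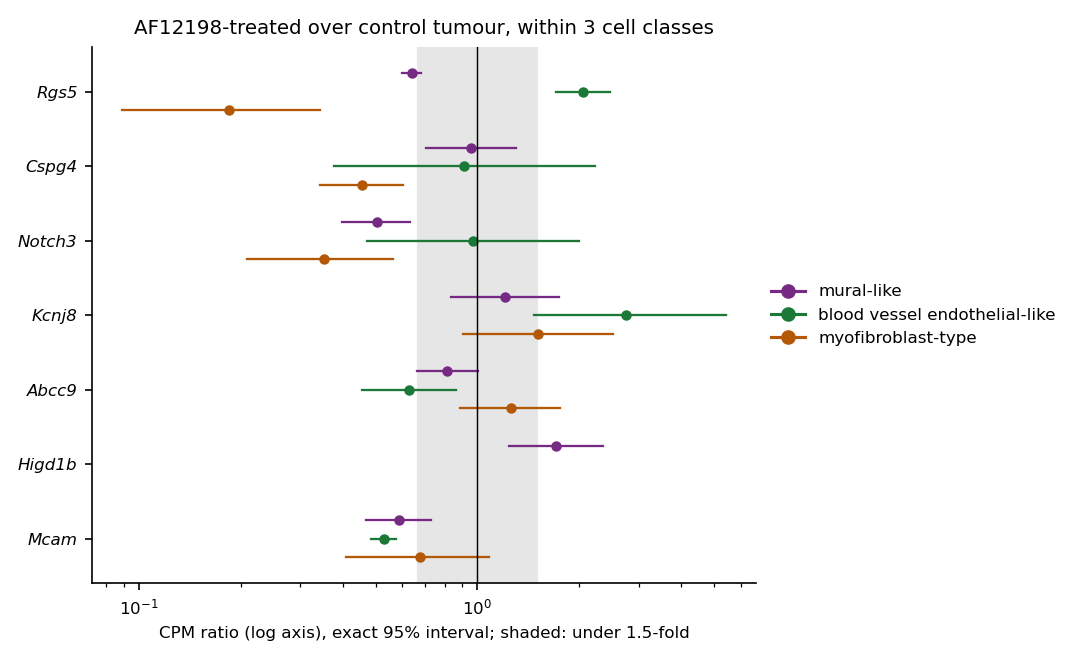
Ratio of CPM in the AF12198-treated over the control tumour for the 7 pericyte genes within mural-like, blood vessel endothelial-like and myofibroblast-type cells, on a log axis with exact 95% conditional intervals; genes with under 5 UMIs or 5 CPM are not drawn and the shaded band is under 1.5-fold. Rgs5 lies at 0.639, 2.05 and 0.184 in the 3 classes.

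The tumour without AF12198 was next compared with tumour-free ligated pancreas. In fibroblast-like cells 4 of the 7 were higher in the control tumour, beside 21.9% of genes, and none lower, beside 15.4%. Rgs5 had 13.9 against 3.72 CPM (3.73, 1.78 to 9.40), or 6.58 against 3.72 CPM without the 2 control cells of high Rgs5 (1.77, 0.825 to 4.53). Also higher were Cspg4 at 22.3 against 8.5 CPM (2.62, 1.59 to 4.64), Notch3 at 10.1 against 3.72 CPM (2.73, 1.29 to 6.91) and Mcam at 7.08 against 1.06 CPM (6.66, 1.80 to 55.8, with 2 UMIs in the ligated pancreas). The ligated values of Rgs5 and Notch3 rest on 7 UMIs each. With the immune-like level subtracted, 3 members were called in place of 4, and the share of all genes called then is not given. The clusters put 0 ligated cells in the myofibroblast-type class, while a gate on markers per cell put 75 there, 8 of them with 2 or more of the 7. In the endothelial-like class, which here includes mural-like cells, Notch3 was lower in the control tumour at 135 against 290 CPM (0.464, 0.374 to 0.579) and Cspg4 at 51.6 against 77.6 CPM (0.665, 0.446 to 1.02). Mcam at 734 against 353 CPM (2.08, 1.75 to 2.49), Kcnj8 (2.85, 1.17 to 9.01) and Higd1b (2.15, 0.945 to 6.05) were higher, so that 3 were higher beside 25.6% of genes and 2 lower beside 33.6%.

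Ligation itself was compared with no ligation. In the endothelial-like class 5 of the 7 were higher after ligation, beside 34% of genes, and 1 was lower, beside 19.7%. Rgs5 had 1827 against 537 CPM (3.4, 3.0 to 3.86), Notch3 290 against 40.5 CPM (7.16, 4.71 to 11.2), Abcc9 145 against 49.2 CPM (2.95, 1.90 to 4.64), Cspg4 77.6 against 27.5 CPM (2.82, 1.54 to 5.28) and Mcam 353 against 135 CPM (2.62, 2.0 to 3.44). Kcnj8, the gene that was lower, had 5 UMIs against 14, and its interval includes 1 (0.617, 0.174 to 1.81). Mural-like cells made up 19 cells beside 89 blood vessel endothelial-like cells after ligation and 7 beside 255 in the normal pancreas, and inside mural-like cells Rgs5 differed by less than its intervals. In blood vessel endothelial-like cells, without the mural-like ones, Mcam was higher after ligation, 404 against 130 CPM (3.10, 2.24 to 4.27), and Rgs5 had 7 UMIs against 120.

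In fibroblast-like cells Cspg4 (8.5 against 21.5 CPM; 0.395, 0.175 to 0.914) and Notch3 (3.72 against 17.9 CPM; 0.207, 0.0669 to 0.603) were lower after ligation, and Kcnj8 was higher with 18 UMIs against 1 (5.33, 0.841 to 222). These are 2 members lower, beside 22.7% of genes, and 1 higher, beside 22.2%, all on 18 UMIs or fewer. In epithelial-like cells Rgs5 had 63.3 CPM after ligation against 14.4 in the normal pancreas (4.4, 3.44 to 5.64) and Notch3 9.5 against 4.24 CPM (2.24, 1.25 to 3.92), 2 members higher beside 15% of genes, and none was lower, beside 11.2%.

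The genes most like the mean of the 7 across cell classes were named by the Pearson correlation of log2(CPM + 1) over 31 profiles, each a class in a library with at least 25 cells, in 11 classes. They were Aplnr (0.962), Dysf (0.955), Gm13889 (0.953), Shank3 (0.952), Hoxb9 (0.949), Foxf1 (0.947), Clec14a (0.943), Sox11 (0.941), Thsd1 (0.941) and Sema3g (0.937). The profiles share libraries, and in them the endothelial-like class includes the mural-like cells, so that genes of endothelium, such as Clec14a, rank with those of mural cells. Gm13889 is the only gene both here and among the 15 genes named by their ratio in barcodes with 3 or more of the 7.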

How the data were processed

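Single cells of mouse pancreas were captured with 10x Genomics 3' chemistry after collagenase digestion, 1 library per group. Per the submitters' processing notes, reads were processed with Cell Ranger 6.0.0 against mm10, and the annotation release was not stated. The deposited files hold raw UMI counts per gene and barcode, which the authors made before deposit and which sum to different totals per library. The members and gene lists were chosen with earlier results of these data known.

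Barcodes with 500 or more UMIs were counted. For classes, cells needed 250 genes, at most 20% mitochondrial UMIs and no doublet call by Scrublet in Scanpy 1.11.5. Its automatic threshold called 1 doublet in the AF12198-treated tumour, where the top 5% of scores were removed (993 cells), and 2274, 0 and 1 in the control tumour, ligated and normal pancreas. Kept cells numbered 18875, 19124, 1124 and 1771, with median depths of 2298, 2030, 2216 and 1589 UMIs. Cells were clustered with leidenalg 0.10.2 on 2000 variable genes without the 7, using 40 principal components, 20 neighbours and resolution 1. A class name needed 3 markers raised 2-fold and found in 10% of cells. These naming limits and the clustering that set mural-like cells apart were chosen after seeing the data.

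Levels are CPM with exact Poisson intervals, shares have exact Clopper-Pearson intervals, and CPM ratios have exact conditional intervals (SciPy 1.17.1). A gene was counted with 5 UMIs in both groups together and 5 CPM in one, and called at 1.5-fold. Thinning drew 1000 UMIs per cell once. The ratio code was tested on simulated counts. Named genes are the 7, up to 6 examples per list by ratio or level, the 15 genes with the highest ratio in barcodes with 3 or more of the 7 (1 of them is not reported here), and the 10 genes most correlated with their mean. Gene positions are from GENCODE vM21 and promoters from RefSeq, on GRCm38.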

Additional observations from a re-analysis of the deposited data

How the results depend on the processing

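Alternatives with 3 or 4 members required, Mcam left out, other depths and filters, other classes and other call rules were run. Values are given for the AF12198-treated tumour, the control tumour, the ligated and the normal pancreas. Requiring 4 members, setting mural-like cells apart and taking the sub-clusters alone were chosen after seeing the data. The share of co-expressing barcodes was 0.298%, 0.612%, 1.80% and 0.705% with 3 or more members, 0.188%, 0.349%, 1.46% and 0.325% with 4 or more, 0.476%, 1.13%, 3.18% and 1.57% without Mcam, and 0.212%, 0.570%, 2.29% and 0.787% when thinned to 1000 UMIs. Counting from 1000 UMIs upward gave 1.81% for the control tumour and 3.93% for normal pancreas. Their collagen was 8446, 18984, 26190 and 50.3 CPM with 3 or more members, 4846, 7992, 4452 and 659 CPM with 4 or more, and 20875, 29278, 14150 and 5.35 CPM without barcodes that hold endothelial markers. The share of member UMIs in endothelial-like cells was 40.8%, 29.2%, 6.47% and 29.0% at resolution 2, where mural cells fell in an unnamed cluster, 27.7%, 26.3%, 6.97% and 20.5% with a marker gate per cell, 28.1%, 19.6%, 7.61% and 23.1% with mural-like cells set apart, and 66.2% in the control tumour with doublets kept. Without the 2 control myofibroblast-type cells of high Rgs5, also chosen after seeing the data, 1 member was called in place of 3 in fibroblast-like cells between the AF12198-treated and control tumours. At 2-fold 1 member was called in place of 3 in fibroblast-like cells and 1 in place of 5 in endothelial-like cells between the AF12198-treated and control tumours. Without a filter on low counts 5 members in place of 3 were called in fibroblast-like cells between ligated and normal pancreas. The shares of all genes called at these altered settings are not given, so these counts are not read as particular to the 7 genes. The share of myofibroblast-type cells with 2 or more members was 0.637% and 1.15% in the 2 tumours when thinned, and in the control tumour 15.2% with the gate and 17.0% in the sub-cluster without Grem1. For changes where no value is given beside them, the cause was not tested. Leaving abundant genes and free RNA genes out of the total, or subtracting the immune-like level, changed no count of called members by over 1.5 times. The smaller total shifted the median log2 ratio of all genes by at most 0.15 in size (-0.15 for ligated over normal endothelial-like cells). Depth limits Higd1b and Kcnj8 most, with 6 and 4 UMIs in ligated mural-like cells. No paired analysis was possible because each group is 1 library.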
